A study of Mus musculus with 15 samples.

Results

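The genes described here are the parts of the motile cilium and the factors that switch it on, in mouse brain tumours of 2 models. They were chosen by name, as every gene of the Dnah, Cfap, Rsph and Tekt families in the deposited tables together with 17 genes of ciliated and ependymal cells. This gave 57 of 24421 genes: 17 cilia and flagella associated proteins, 11 axonemal dynein heavy chains, 7 radial spoke proteins, 5 tektins, 5 regulators, 4 central pair proteins, 2 dynein light chains, 2 genes of the nexin-dynein complex and of dynein assembly, and 4 other ependymal genes. The motile cilium is built on an axoneme, a ring of doublet microtubules around a central pair. Dynein arms on the doublets walk along their neighbours, and radial spokes and the central pair set the beat. In the brain, ependymal cells that line the ventricles carry tufts of such cilia, and cells of the choroid plexus carry related ones.

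The samples were brain tumour tissue, sequenced as poly(A) RNA in 15 libraries, 3 in each of 5 groups. EPN Sox9-GOF tumours (ependymoma with a gain of Sox9 function) were set against EPN controls. HGG Sox9-GOF tumours (high-grade glioma with a gain of Sox9 function) and HGG tumours labelled Sox9-LOF (loss of function) were each set against the same HGG controls. Labels give neither the alleles or agents that made the tumours, nor strain, age or how Sox9 was changed, and they do not say that replicates are separate animals, so the p-values reflect only how these samples vary. The study is about Sox9, a transcription factor of glia and cartilage, in these tumour types.

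Levels below are rescaled counts, that is, reads per gene divided by a size factor that makes the 15 libraries comparable, and folds are log2 values of limma on rescaled count + 1. A change was called at a Benjamini-Hochberg adjusted p under 0.05 over all genes tested, that is, genes with a mean of at least 10. The libraries held 4665428 to 14119140 reads, and a library without a read for a gene allows up to 3 reads, which is 2.13 to 6.15 rescaled counts depending on the library. Sox9 itself had 1834 to 2692 in EPN Sox9-GOF tumours and 1040.2 to 1189 in EPN controls. In HGG tumours it had 1276 to 1537 with Sox9-GOF, 395 to 739 under the Sox9-LOF label and 218 to 310.3 in controls. It was thus higher, not lower, in the libraries labelled Sox9-LOF than in HGG controls, and no direction is drawn from that label. Replicates correlated at 0.930 to 0.965 in 4 of the groups and at 0.819 to 0.861 in HGG controls. In bulk tissue, fewer ciliated cells and less RNA per ciliated cell cannot be told apart.

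The sequences just before the gene starts are shown for some of the members on which the results turn, and for Ccno, which was not called. RFX factors bind the X-box, a palindrome of paired arms, and a single arm of it was searched as GTTGCC, which can overlap a whole X-box. Forkhead factors such as FOXJ1 bind motifs like TGTTTAC. All were searched on both strands of the 250 bases before each start. Among the 52 members with a RefSeq promoter, 18 held the single arm, or 34.6%, against 11.8% of all 27025 genes. The X-box was found in 4 members, or 7.69%, against 1.81% of all genes, and the forkhead motif in 5 members, or 9.62%, against 3.54%. Each stretch below is 80 bases of build GRCm38.p6 from RefSeq, written 5′ to 3′ on the strand of the gene, with a motif in capitals where there is one. Hydin (chr8:110266897-110266976, plus strand), Drc1 (chr5:30281313-30281392, plus strand) and Tekt1 (chr11:72361883-72361962, minus strand) hold the single arm, Ccno (chr13:112987552-112987631, plus strand) the whole X-box and Ak7 (chr12:105705814-105705893, plus strand) the forkhead motif. Tekt5 (chr16:10395536-10395615, minus strand) and Rfx3 (chr19:28011247-28011326, minus strand) hold none in the 250 bases searched. Tekt1 has a further RefSeq start (chr11:72361377-72361456, minus strand, not shown) that holds none either. The Hydin stretch ends on the base before its start and lies inside an exon of Gm26832, a noncoding gene of the opposite strand.
Hydin: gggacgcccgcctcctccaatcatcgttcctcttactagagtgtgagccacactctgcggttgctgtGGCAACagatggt
Tekt5: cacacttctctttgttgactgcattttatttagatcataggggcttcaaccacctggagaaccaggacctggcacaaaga
Ak7: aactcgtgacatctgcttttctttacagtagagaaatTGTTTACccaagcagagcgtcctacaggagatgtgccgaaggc
Drc1: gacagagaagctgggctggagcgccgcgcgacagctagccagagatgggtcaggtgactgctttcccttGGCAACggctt
Tekt1: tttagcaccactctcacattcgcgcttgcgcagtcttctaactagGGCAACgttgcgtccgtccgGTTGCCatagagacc
Ccno: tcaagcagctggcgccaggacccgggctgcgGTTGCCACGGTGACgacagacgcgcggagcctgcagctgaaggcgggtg
Rfx3: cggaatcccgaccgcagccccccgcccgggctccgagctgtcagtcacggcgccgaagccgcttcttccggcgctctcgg
These matches are a description of letters and not of bound sites. Of the members called lower in EPN Sox9-GOF than in HGG Sox9-GOF tumours, 3 of the 7 with a promoter held the single arm. These were Drc1, Cfap46 and, before the start shown only, Tekt1. Of the 5 that were higher, 1 held it, namely Hydin.

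Most members stayed below a mean of 100 rescaled counts in every group, and more of them reached 10 in the HGG groups than in the EPN groups. The mean level reached 10 rescaled counts for 28 of 57 members in EPN Sox9-GOF tumours, 32 in EPN controls, 43 in HGG Sox9-GOF tumours, 46 under the Sox9-LOF label and 43 in HGG controls. It reached 100 for 9, 9, 7, 7 and 9 members in the same order. The median over members of these group means was 9.99 rescaled counts in EPN Sox9-GOF tumours and 14.96 in EPN controls. In HGG tumours it was 24.2 with Sox9-GOF, 29.8 under the Sox9-LOF label and 25.9 in controls. Rsph6a, a spoke head protein known from sperm, had no read in 3 of the groups, namely EPN Sox9-GOF, EPN control and HGG control.

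**Figure D1:**
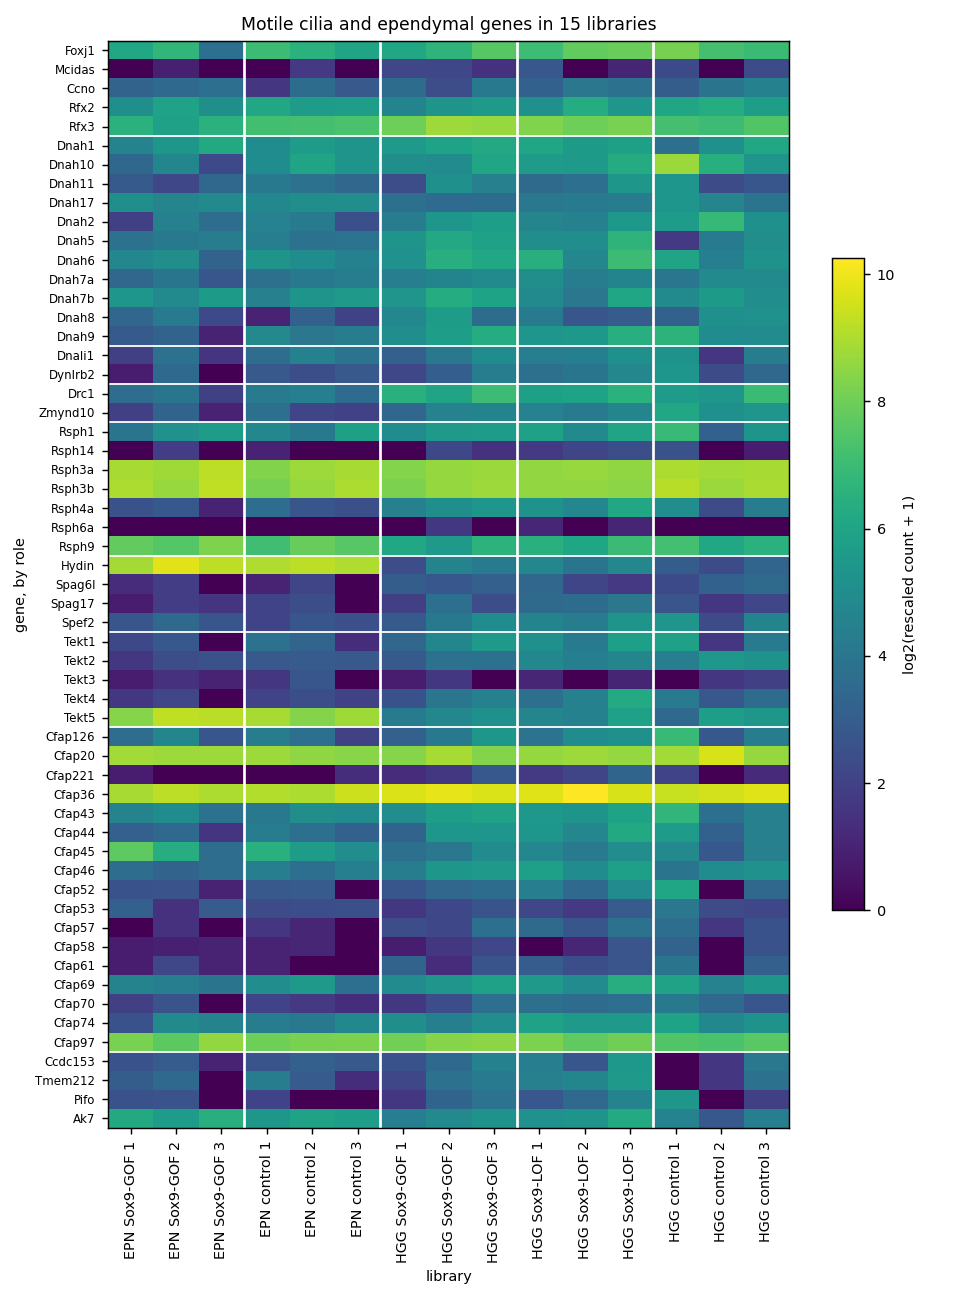
Level of each of the 57 members as log2(rescaled count + 1), by colour, with members in rows grouped by role and the 15 libraries in columns grouped by tumour type. Cfap20, Cfap36, Cfap97, Rsph3a and Rsph3b are bright in all 15 columns, while Hydin and Tekt5 are bright in the 6 EPN columns.

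Per kilobase of transcript, the top of the list was much the same in each group. Cfap36, a protein that binds the ciliary GTPase Arl3, led in all 5 groups, with 319 ± 40.5 rescaled counts per kilobase in EPN Sox9-GOF tumours, 349 ± 65.4 in EPN controls and 519 ± 37.1 in HGG Sox9-GOF tumours (SD, n = 3). Its levels were 576 ± 136 under the Sox9-LOF label and 460.0 ± 58.3 in HGG controls (SD, n = 3). In EPN tumours the next were Tekt5, Rsph9, Rsph3a and Rsph3b. Tekt5 had 283 ± 87.2 and Rsph9 246 ± 66.1 in EPN Sox9-GOF tumours, and 231 ± 43.0 and 194 ± 48.2 in EPN controls (SD, n = 3), so these neighbours in the order did not differ beyond their spread. In HGG tumours Rsph3a, Rsph3b, Cfap20 and Rsph9 came next. Rsph3a and Rsph3b, copies of a spoke stalk gene, share 74.0% and 73.4% of their 50-base words, and their levels stayed within 0.17 on the log2 scale of each other in all 15 libraries, so the reads of the pair may be shared between them. Cfap20, a protein inside the doublet microtubules, and Cfap97 were also present in every library, at 325 to 787 and 158 to 382 rescaled counts.

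Between the tumour models, Hydin and Tekt5 stood far above the other members. Hydin (chromosome 8, bases 110266977 to 110610253, GENCODE M21 on GRCm38) codes for a large central pair protein. It had 464, 887 and 597 in EPN Sox9-GOF tumours and 522, 602 and 515 in EPN controls. Hydin had 4.31, 22.8 and 17.5 in HGG Sox9-GOF tumours, 25.7, 14.8 and 25.6 under the Sox9-LOF label and 7.14, 4.10 and 9.23 in HGG controls. The lowest EPN library, at 464, lay far above the highest HGG library, at 25.7. Hydin was higher by 6.18 (SE 0.36, 72.6-fold) in EPN controls than in HGG controls, with a limma adjusted p of 0.000997. Between the Sox9-GOF groups it was higher in EPN by 5.56 (SE 0.58, 47.3-fold), with a limma adjusted p of 0.00038. The call held under all 15 alternatives of both comparisons.

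Tekt5 (chromosome 16, bases 10357948 to 10395490), a tektin filament protein known from sperm flagella, followed the same pattern. It had 331, 623 and 578 in EPN Sox9-GOF tumours and 478, 329 and 442 in EPN controls. Tekt5 had 17.9, 25.7 and 34.2 in HGG Sox9-GOF tumours, 24.6, 21.6 and 57.9 under the Sox9-LOF label and 10.3, 53.3 and 41.9 in HGG controls. No HGG library reached the lowest EPN library. The log2 fold change was 3.79 (SE 0.61) between EPN and HGG controls, with a limma adjusted p of 0.0127, and 4.24 (SE 0.36) between the EPN and HGG Sox9-GOF groups, with a limma adjusted p of 0.000189. Without EPN control 1, 2 or 3 the change between controls was 3.68, 3.95 and 3.74. The limma adjusted p was then 0.0627, 0.061 and 0.0586, so the call was lost while the change stayed similar. Over all genes, limma calls between controls ran from 368 to 3633 when 1 library was left out, against 2317 with all libraries in. Hydin and Tekt5 were the only members that limma called in both model comparisons with all libraries in, and DESeq2 called Ak7 and Drc1 in both as well.

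The genes next to Hydin and Tekt5 on the chromosome were looked at after these values were seen. Vac14 starts 8332 bases beyond the end of Hydin and had 329 to 427 rescaled counts in EPN Sox9-GOF tumours and 352 to 433 in EPN controls, against 244 to 371 in HGG Sox9-GOF tumours and 461 to 527 in HGG controls. Cmtr2, 42491 bases on the other side, had 121 to 128 and 89.8 to 111, against 113 to 145 and 61.8 to 114 in the same order. Neither was called between the models, with log2 fold changes from -0.33 to 0.39. The next genes outward, Mtss1l and Calb2, were lower in EPN Sox9-GOF than in HGG Sox9-GOF tumours, at -2.30 (limma adjusted p 0.00125) and -3.62 (limma adjusted p 0.00772), and Mtss1l also between controls, at -1.49 (limma adjusted p 0.0388). On one side of Tekt5 lie Nubp1, 16458 bases away, and Tvp23a, 25067 bases away, and on the other Emp2, 43980 bases away, and Atf7ip2, 106470 bases away. Atf7ip2 had 7.68 to 22.4 rescaled counts in EPN Sox9-GOF tumours and 7.78 to 16.9 in EPN controls, against 0 to 1.75 in HGG Sox9-GOF tumours, 0 to 2.23 under the Sox9-LOF label and 0 to 1.59 in HGG controls. Its EPN and HGG libraries did not overlap, as for Tekt5, and it was too scarce to be tested. Tvp23a went the other way between the Sox9-GOF groups, at -3.23 (limma adjusted p 0.00288). Emp2 was higher in EPN Sox9-GOF than in HGG Sox9-GOF tumours by 0.94 (limma adjusted p 0.0101), and Nubp1 had a log2 fold change of 0.90 (limma adjusted p 0.054). Between controls Emp2, Nubp1 and Tvp23a were not called by limma, at 0.54, -0.12 and -1.89.

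**Figure D2:**
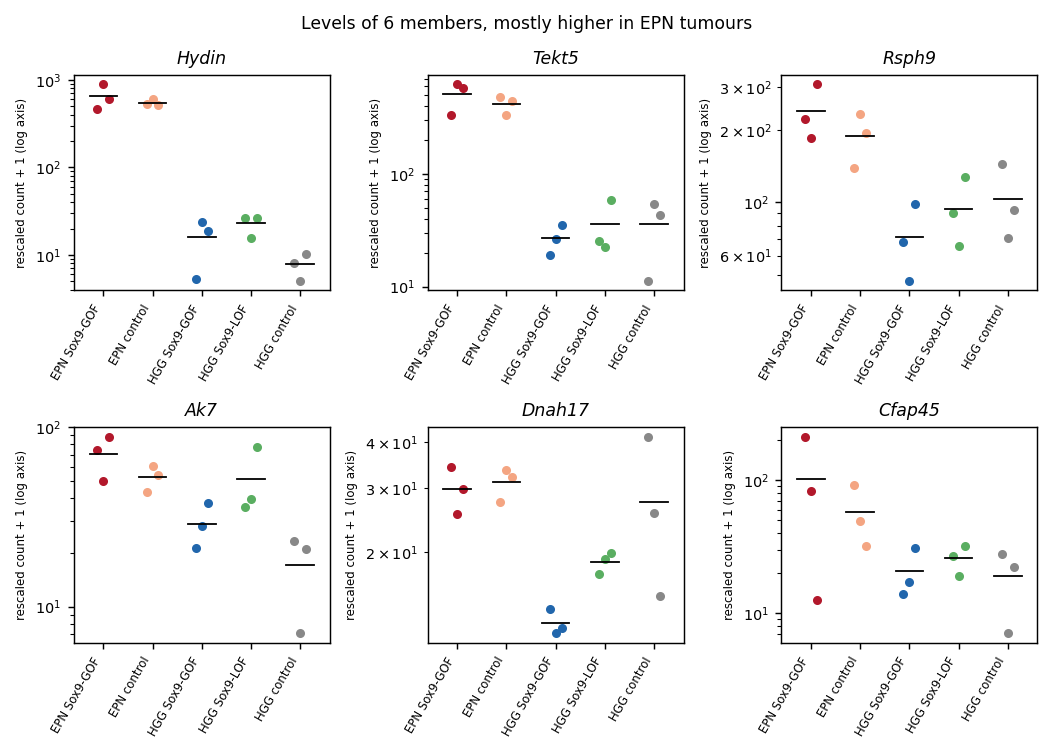
Levels of Hydin, Tekt5, Rsph9, Ak7, Dnah17 and Cfap45 as rescaled count + 1 on a log axis, with 1 point per library and a bar at the mean of the 3 libraries of each group. The 6 EPN points of Hydin and Tekt5 lie above all 9 HGG points, while the Cfap45 points of EPN Sox9-GOF tumours are spread from 11.5 to 209.8 rescaled counts.

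Apart from this pair, most members had a negative log2 fold change in EPN over HGG tumours, and few of these passed the test. Between EPN and HGG controls, 41 members were tested and 4 were called, against 15.3% of all genes. Hydin and Tekt5 were higher, which compares with 9.51% of all genes called in that direction, and Tekt2 and Zmynd10 were lower, which compares with 5.83%. The log2 fold change was positive for 11 members and negative for 30, with a median of -0.45 against 0.00 over all genes tested. Groups did not overlap for 5 members that were higher and 7 that were lower, where 21.9% and 18.4% of all genes did so, or 40.3% in all. An unadjusted p under 0.05 was found for 6 members that were higher and 5 that were lower, against 33.3% of all genes in both directions. Between EPN Sox9-GOF and HGG Sox9-GOF tumours, 13 of 38 members were called, against 40.7% of all genes. Of these, 5 were higher and 8 were lower, and the background in the 2 directions was 19.6% and 21.2%. The median was -1.04 against 0.04 over all genes tested, with 11 positive and 27 negative values. In both comparisons the share of members called lay below that of all genes. Between the Sox9-GOF groups the lower side was fuller at looser thresholds: 16 of 38 members were lower and 5 higher at an unadjusted p under 0.05, against 25.2% and 24.7% of all genes. Groups did not overlap there for 14 members that were lower and 6 that were higher, against 27.2% and 27.8%. A member passes the level filter through the group where it is high, so these counts are a description only. The median between controls was -0.22 without HGG control 1 and -0.72 without HGG control 2.

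**Figure D3:**
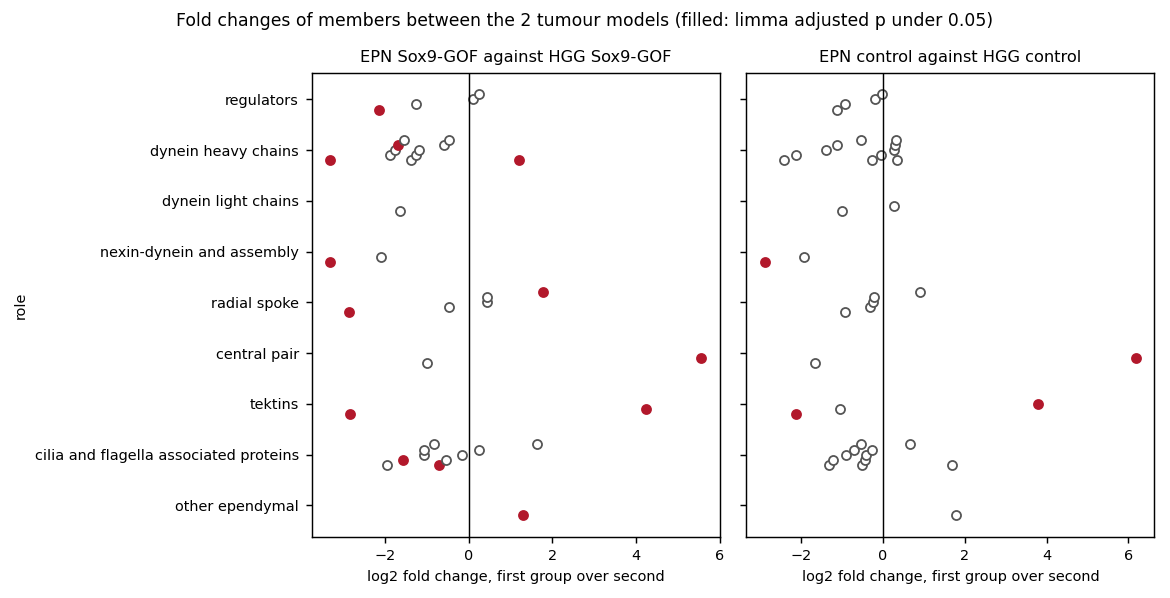
Log2 fold changes of the tested members by role, EPN Sox9-GOF over HGG Sox9-GOF tumours on the left and EPN control over HGG control on the right, with filled points for a limma adjusted p under 0.05. Hydin (central pair) and Tekt5 (tektins) lie to the far right in both panels, and most dynein heavy chains lie left of 0.

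The regulators did not follow Hydin and Tekt5. Foxj1, the forkhead factor that directs motile ciliogenesis, had 68.5, 107 and 12.5 in EPN Sox9-GOF tumours and 129.9, 93.5 and 62.2 in EPN controls. Foxj1 had 68.9, 102 and 191 in HGG Sox9-GOF tumours, 134, 219 and 238 under the Sox9-LOF label and 286, 148 and 126 in HGG controls. The groups compared between the models overlapped, and its log2 fold change between models was -0.93 for controls (limma adjusted p 0.181) and -1.26 for the Sox9-GOF groups (limma adjusted p 0.234). Rfx3, an RFX factor needed for ependymal cilia, had 93.7, 57.6 and 93.1 in EPN Sox9-GOF tumours and 140.5, 149.9 and 159 in EPN controls. Rfx3 had 253, 425 and 409.5 in HGG Sox9-GOF tumours, 319, 249.7 and 287 under the Sox9-LOF label and 151, 131 and 177 in HGG controls. The EPN Sox9-GOF libraries were the lowest of all, and the HGG Sox9-GOF libraries lay above both control groups. Rfx3 was lower in EPN Sox9-GOF than in HGG Sox9-GOF tumours by a log2 fold change of -2.14 (SE 0.31), with a limma adjusted p of 0.00149 and the call kept under all 15 alternatives. Between EPN and HGG controls the change was -0.02 (SE 0.23).

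Rfx2, the second RFX factor of the set, had 33.9, 59.3 and 33.6 in EPN Sox9-GOF tumours and 67.6, 49.6 and 52.9 in EPN controls. Rfx2 had 23.7, 38.2 and 44.7 in HGG Sox9-GOF tumours, 33.9, 79.5 and 41.2 under the Sox9-LOF label and 63.5, 79.96 and 52.5 in HGG controls. Its groups overlapped between models, with log2 fold changes of -0.19 and 0.24. Mcidas, the coregulator that starts the multiciliated cell programme, had 0, 0.87 and 0 in EPN Sox9-GOF tumours and 0, 2.25 and 0 in EPN controls. Mcidas had 3.59, 3.67 and 1.75 in HGG Sox9-GOF tumours, 5.85, 0 and 1.11 under the Sox9-LOF label and 3.97, 0 and 4.26 in HGG controls, so it lay near the level of single reads throughout. Ccno, a cyclin needed to multiply centrioles, had 8.65, 10.5 and 12.5 in EPN Sox9-GOF tumours and 2.11, 11.3 and 6.22 in EPN controls. Ccno had 11.5, 4.40 and 16.7 in HGG Sox9-GOF tumours, 8.18, 15.9 and 13.4 under the Sox9-LOF label and 7.14, 14.3 and 22.01 in HGG controls, and no group stood apart.

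**Figure D4:**
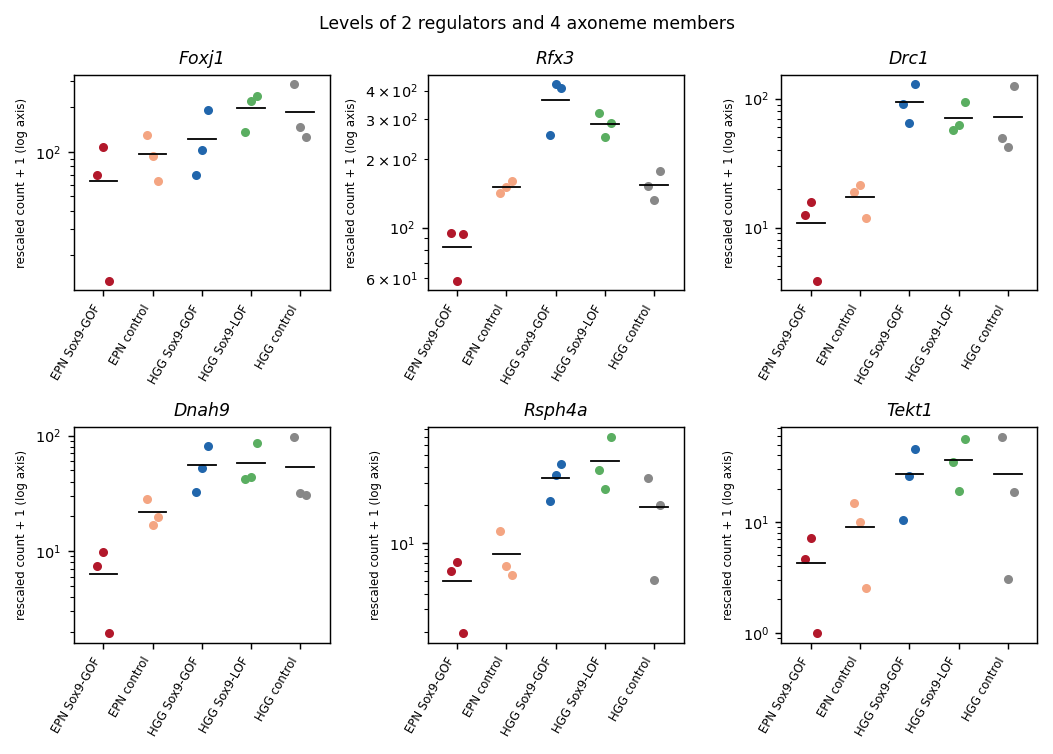
Levels of the regulators Foxj1 and Rfx3 and of the axoneme members Drc1, Dnah9, Rsph4a and Tekt1 as rescaled count + 1 on a log axis, with 1 point per library and a bar at the group mean of 3 libraries. Rfx3 lies between 57.6 and 93.7 rescaled counts in EPN Sox9-GOF tumours and between 253 and 425 in HGG Sox9-GOF tumours, and the Foxj1 points of the models overlap.

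All 11 dynein heavy chains were tested in both model comparisons. Between the Sox9-GOF groups 10 of them had a negative log2 fold change and 1 a positive one, with a median of -1.38, and 2 were called lower and 1 higher. Dnah9, a motor of the outer arm, had 6.49, 8.72 and 0.96 in EPN Sox9-GOF tumours and 27.5, 15.8 and 18.7 in EPN controls. Dnah9 had 31.6, 51.4 and 80.7 in HGG Sox9-GOF tumours, 40.9, 43.1 and 85.7 under the Sox9-LOF label and 96.8, 30.8 and 29.8 in HGG controls. The EPN libraries all lay below the HGG libraries, and the change between the Sox9-GOF groups was -3.31 (SE 0.72, limma adjusted p 0.00826). Between controls it was -1.12 and was not called. Dnah5, the partner motor of the outer arm, had 12.98, 16.6 and 19.2 in EPN Sox9-GOF tumours and 20.1, 13.5 and 14.00 in EPN controls. Dnah5 had 38.8, 72.7 and 57 in HGG Sox9-GOF tumours, 32.7, 31.8 and 100.2 under the Sox9-LOF label and 2.38, 18.4 and 32.7 in HGG controls. HGG control 1 was the lowest of all libraries for Dnah5. Dnah5 was lower in EPN Sox9-GOF than in HGG Sox9-GOF tumours with a log2 fold change of -1.70 (SE 0.40, limma adjusted p 0.0121), and with a correction for GC content the change was -0.79 (limma adjusted p 0.122). Without HGG Sox9-GOF 2 it was -1.49 (limma adjusted p 0.0539).

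Dnah17, an outer arm motor known from sperm, was the exception among the heavy chains. It had 33.2, 24.4 and 28.8 in EPN Sox9-GOF tumours and 26.4, 32.7 and 31.1 in EPN controls. Dnah17 had 12.9, 11.01 and 11.4 in HGG Sox9-GOF tumours, 16.4, 18.2 and 18.9 under the Sox9-LOF label and 40.5, 24.6 and 14.2 in HGG controls. It was higher in EPN Sox9-GOF than in HGG Sox9-GOF tumours by 1.21 (SE 0.40, limma adjusted p 0.0431), a call kept in 7 of 15 alternatives, and it overlapped between controls. The call was lost without any single library of either group, at 1.11 to 1.32. Dnah17 overlaps Pgs1, a gene of the opposite strand. Dnah11, the outer arm motor mutated in human situs defects, had 6.49, 3.49 and 9.60 in EPN Sox9-GOF tumours and 16.9, 13.5 and 9.34 in EPN controls. Dnah11 had 4.31, 34.5 and 21.1 in HGG Sox9-GOF tumours, 10.5, 12.5 and 42.3 under the Sox9-LOF label and 40.5, 4.10 and 5.68 in HGG controls. The groups of Dnah11 overlapped between the models. Dnah6, an inner arm motor, had 26.7, 32.3 and 8.64 in EPN Sox9-GOF tumours and 39.1, 30.4 and 21.8 in EPN controls. Dnah6 had 35.2, 85.1 and 69.3 in HGG Sox9-GOF tumours, 84.2, 26.1 and 129 under the Sox9-LOF label and 61.9, 20.5 and 36.2 in HGG controls, and its EPN Sox9-GOF libraries all lay below the HGG Sox9-GOF ones (log2 fold change -1.54, limma adjusted p 0.0705), a difference that DESeq2 called and limma and edgeR did not.

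The inner arm motors Dnah7a and Dnah7b share 30.6% and 30.4% of their 50-base words, so some of their reads are uncertain. Dnah7a had 9.37, 14.8 and 5.76 in EPN Sox9-GOF tumours and 12.7, 16.9 and 18.7 in EPN controls. Dnah7a had 20.1, 23.5 and 28.9 in HGG Sox9-GOF tumours, 32.7, 19.3 and 23.4 under the Sox9-LOF label and 15.1, 28.7 and 29.1 in HGG controls. All 3 EPN Sox9-GOF libraries lay below the HGG Sox9-GOF ones. Dnah7b had 40.4, 28.8 and 47.05 in EPN Sox9-GOF tumours and 21.1, 38.3 and 45.1 in EPN controls. Dnah7b had 40.2, 79.3 and 60.5 in HGG Sox9-GOF tumours, 29.2, 15.9 and 64.5 under the Sox9-LOF label and 28.6, 47.1 and 31.2 in HGG controls, with overlap throughout. Dnah2, an inner arm motor, had 2.88, 20.9 and 11.5 in EPN Sox9-GOF tumours and 22.2, 18.03 and 4.67 in EPN controls. Dnah2 had 18.7, 40.4 and 50.9 in HGG Sox9-GOF tumours, 24.6, 21.6 and 43.4 under the Sox9-LOF label and 49.2, 117 and 34.8 in HGG controls. Dnah2 and the sperm outer arm motor Dnah8 were lower in every EPN control than in every HGG control, with log2 fold changes of -2.13 (limma adjusted p 0.0966) and -2.43 (limma adjusted p 0.11). Limma with the spread of the 2 groups called neither. DESeq2 called both, and so did limma with the spread of all 15 libraries, at adjusted p of 0.0434 for Dnah2 and 0.0383 for Dnah8. Limma also called Dnah8 without HGG control 1. Dnah8 had 9.37, 18.3 and 3.84 in EPN Sox9-GOF tumours and 1.06, 7.89 and 3.11 in EPN controls. Dnah8 had 25.8, 49.9 and 11.4 in HGG Sox9-GOF tumours, 17.5, 5.68 and 6.68 under the Sox9-LOF label and 7.94, 34.9 and 35.5 in HGG controls.

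Of the light chains, Dnali1, which belongs to the inner arms, had 2.88, 13.1 and 1.92 in EPN Sox9-GOF tumours and 11.6, 21.4 and 14.00 in EPN controls. Dnali1 had 7.90, 16.1 and 30.7 in HGG Sox9-GOF tumours, 19.9, 20.4 and 34.5 under the Sox9-LOF label and 37.3, 2.05 and 19.2 in HGG controls. The models overlapped for Dnali1. Dynlrb2, a light chain of the roadblock type, had 0.72, 10.5 and 0 in EPN Sox9-GOF tumours and 6.34, 4.51 and 6.22 in EPN controls. Dynlrb2 had 3.59, 7.34 and 19.3 in HGG Sox9-GOF tumours, 12.9, 14.8 and 25.6 under the Sox9-LOF label and 41.3, 4.10 and 9.94 in HGG controls. They overlapped for Dynlrb2 as well. Drc1 (chromosome 5, bases 30281388 to 30366695), which anchors the nexin-dynein regulatory complex that links doublets, gave the clearest low value in EPN. It had 11.5, 14.8 and 2.88 in EPN Sox9-GOF tumours and 17.96, 20.3 and 10.9 in EPN controls. Drc1 had 90.4, 63.1 and 128 in HGG Sox9-GOF tumours, 56.1, 61.3 and 92.4 under the Sox9-LOF label and 48.4, 41.00 and 124 in HGG controls. The models did not overlap, and the log2 fold change was -3.31 (SE 0.61) between the Sox9-GOF groups, with a limma adjusted p of 0.004 and the call kept under all 15 alternatives. Between controls it was -1.92 (SE 0.55, limma adjusted p 0.061), which DESeq2 and limma with the spread of all 15 libraries called.

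Zmynd10, which helps to assemble dynein arms in the cytoplasm, had 2.88, 8.72 and 0.96 in EPN Sox9-GOF tumours and 12.7, 3.38 and 3.11 in EPN controls. Zmynd10 had 9.33, 22.02 and 23.7 in HGG Sox9-GOF tumours, 22.2, 17.03 and 24.5 under the Sox9-LOF label and 67.5, 34.9 and 39.8 in HGG controls. It was lower in EPN than in HGG controls, with a log2 fold change of -2.89 (SE 0.65, limma adjusted p 0.0326), and EPN controls did not overlap HGG controls. The call was kept in 8 of 15 alternatives. It was lost without HGG control 1, 2 or 3, at -2.61, -3.08 and -2.98, and without EPN control 2 or 3, at -2.63 and -2.58. Tekt2, a tektin of cilia and sperm, had 2.16, 4.36 and 4.80 in EPN Sox9-GOF tumours and 6.34, 6.76 and 6.22 in EPN controls. Tekt2 had 6.46, 13.2 and 13.2 in HGG Sox9-GOF tumours, 26.9, 20.4 and 24.5 under the Sox9-LOF label and 19.8, 43.05 and 36.9 in HGG controls. The EPN controls lay below the HGG controls (log2 fold change -2.13, SE 0.50, limma adjusted p 0.0377), a call kept in 7 of 15 alternatives. The Tekt2 call was lost without HGG control 2 or 3 or any EPN control. Those changes were -1.92 and -2.03 without HGG control 2 and 3, and -2.12, -2.17 and -2.11 without EPN control 1, 2 and 3. Calls over all genes also moved between controls, from 368 to 3633 when 1 library was left out, against 2317 with all libraries in.

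Tekt1, a tektin of motile cilia, had 3.60, 6.10 and 0 in EPN Sox9-GOF tumours and 13.7, 9.02 and 1.56 in EPN controls. Tekt1 had 9.33, 24.9 and 44.7 in HGG Sox9-GOF tumours, 33.9, 18.2 and 54.5 under the Sox9-LOF label and 57.9, 2.05 and 17.8 in HGG controls. It was lower in EPN Sox9-GOF than in HGG Sox9-GOF tumours, with a log2 fold change of -2.85 (SE 0.92, limma adjusted p 0.0405). That call was kept in 9 of 14 alternatives, and was lost without HGG Sox9-GOF 2, at -2.76, without EPN Sox9-GOF 1 or 3, at -3.11 and -2.01, and with the replicate block, with or without GC correction. Without HGG Sox9-GOF 3 it was too scarce to be tested. Tekt4 ranged from 0 to 4.51 rescaled counts in EPN libraries and from 5.02 to 76.8 in HGG libraries, and Tekt3 from 0 to 5.64 over all libraries. Of the spoke head proteins, Rsph4a had 5.05, 6.10 and 0.96 in EPN Sox9-GOF tumours and 11.6, 5.63 and 4.67 in EPN controls. Rsph4a had 20.8, 33.8 and 41.2 in HGG Sox9-GOF tumours, 37.4, 26.1 and 69.01 under the Sox9-LOF label and 31.7, 4.10 and 19.2 in HGG controls. Its log2 fold change between the Sox9-GOF groups was -2.86 (SE 0.65, limma adjusted p 0.0104), lost only without HGG Sox9-GOF 3 (-2.65, limma adjusted p 0.0502), and between controls, where the groups overlapped, -0.94 (limma adjusted p 0.476).

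Rsph9, also of the spoke head, went the other way. It had 221, 184 and 308 in EPN Sox9-GOF tumours and 138, 231 and 193 in EPN controls. Rsph9 had 67.5, 46.2 and 97.3 in HGG Sox9-GOF tumours, 88.8, 64.7 and 126 under the Sox9-LOF label and 144, 69.7 and 91.6 in HGG controls. Rsph9 was higher in EPN Sox9-GOF than in HGG Sox9-GOF tumours by 1.77 (SE 0.35, limma adjusted p 0.00559), with the call kept under all 15 alternatives, and between controls the change was 0.91 (limma adjusted p 0.132). It overlaps Mrps18a on the opposite strand, and since the strand setting of the counting is not known, their reads cannot be fully told apart. Rsph1, a further spoke head protein, had 14.4, 34.9 and 48.01 in EPN Sox9-GOF tumours and 26.4, 16.9 and 56.01 in EPN controls. Rsph1 had 30.9, 44.8 and 49.1 in HGG Sox9-GOF tumours, 57.3, 28.4 and 62.3 under the Sox9-LOF label and 123, 8.20 and 38.4 in HGG controls, and all groups overlapped. Rsph4a and Rsph9, which sit in the same spoke head, were thus called in opposite directions.

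Unlike Hydin, the other central pair genes did not exceed 10.5 rescaled counts in EPN libraries, and they reached at most 39.7 in HGG libraries. Spag6l, an armadillo repeat protein, had 1.44, 2.62 and 0 in EPN Sox9-GOF tumours and 1.06, 3.38 and 0 in EPN controls. Spag6l had 7.18, 5.87 and 7.89 in HGG Sox9-GOF tumours, 9.35, 3.40 and 2.23 under the Sox9-LOF label and 3.97, 8.20 and 10.7 in HGG controls. All EPN libraries of Spag6l lay below those of HGG Sox9-GOF tumours and HGG controls. Spag17 had 0.72, 2.62 and 1.92 in EPN Sox9-GOF tumours and 3.17, 4.51 and 0 in EPN controls. Spag17 had 2.87, 12.5 and 4.38 in HGG Sox9-GOF tumours, 10.5, 11.3 and 15.6 under the Sox9-LOF label and 5.55, 2.05 and 3.55 in HGG controls. Neither passed the level filter in either model comparison. Spef2, which is needed for central pair assembly, had 5.77, 10.5 and 5.76 in EPN Sox9-GOF tumours and 3.17, 5.63 and 4.67 in EPN controls. Spef2 had 6.46, 16.9 and 30.7 in HGG Sox9-GOF tumours, 23.4, 19.3 and 38.95 under the Sox9-LOF label and 39.7, 4.10 and 23.4 in HGG controls. HGG control 2 and HGG Sox9-GOF 1 lay inside the EPN range.

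Among the 17 Cfap genes, 11 were tested between controls, with 2 positive and 9 negative values. Limma and edgeR called 0 of them. DESeq2 and limma with the spread of all 15 libraries called Cfap97, where they called 29.1% and 27.9% of all genes, and Cfap45 and Cfap97 had an unadjusted p under 0.05. Cfap43, a tether of inner dynein arms, had 23.1, 30.5 and 13.4 in EPN Sox9-GOF tumours and 16.9, 32.7 and 29.6 in EPN controls. Cfap43 had 31.6, 51.4 and 58.8 in HGG Sox9-GOF tumours, 43.3, 38.6 and 58.99 under the Sox9-LOF label and 107, 12.3 and 21.3 in HGG controls. The EPN Sox9-GOF libraries of Cfap43 lay below the HGG Sox9-GOF ones, and the controls overlapped. Cfap52, a protein inside the doublet microtubules, had 5.05, 5.23 and 0.96 in EPN Sox9-GOF tumours and 6.34, 6.76 and 0 in EPN controls. Cfap52 had 5.74, 9.54 and 11.4 in HGG Sox9-GOF tumours, 19.9, 10.2 and 30.1 under the Sox9-LOF label and 66.7, 0 and 9.94 in HGG controls. For Cfap43 and Cfap52, HGG control 1 was the highest of all libraries and HGG control 2 the lowest of the HGG libraries. Cfap126, also an inner microtubule protein, had 11.5, 25.3 and 5.76 in EPN Sox9-GOF tumours and 19.01, 12.4 and 3.11 in EPN controls. Cfap126 had 7.90, 16.9 and 42.1 in HGG Sox9-GOF tumours, 14.03, 30.6 and 34.5 under the Sox9-LOF label and 118, 6.15 and 19.2 in HGG controls, again with the highest value in HGG control 1. Cfap46, of the central apparatus, and Cfap36 were lower in EPN Sox9-GOF than in HGG Sox9-GOF tumours, with log2 fold changes of -1.56 (SE 0.48, limma adjusted p 0.0333) and -0.70 (SE 0.17, limma adjusted p 0.0145). Cfap46 had 11.5, 8.72 and 11.5 in EPN Sox9-GOF tumours and 20.1, 12.4 and 20.2 in EPN controls. Cfap46 had 19.4, 41.8 and 43.8 in HGG Sox9-GOF tumours, 53.8, 30.6 and 54.5 under the Sox9-LOF label and 14.3, 30.8 and 35.5 in HGG controls. Its call was kept in 8 of 15 alternatives and lost without HGG Sox9-GOF 2 or 3 or any EPN Sox9-GOF library, at -1.62 to -1.36. Cfap36 had 475, 606 and 513 in EPN Sox9-GOF tumours and 530.3, 505 and 705 in EPN controls. Cfap36 had 836, 934 and 819 in HGG Sox9-GOF tumours, 860.5, 1217 and 798 under the Sox9-LOF label and 677, 750.4 and 869 in HGG controls. Without HGG Sox9-GOF 2 the change of Cfap36 was -0.65 (limma adjusted p 0.0515). Cfap45, an inner microtubule protein, had 209.8, 81.97 and 11.5 in EPN Sox9-GOF tumours and 90.8, 48.5 and 31.1 in EPN controls. Cfap45 had 12.9, 16.1 and 29.8 in HGG Sox9-GOF tumours, 25.7, 18.2 and 31.2 under the Sox9-LOF label and 26.98, 6.15 and 21.3 in HGG controls, and the 3 EPN Sox9-GOF libraries spread from 11.5 to 209.8. Limma called Cfap45 in neither model comparison with all libraries in. Between the Sox9-GOF groups it was called higher by DESeq2 (2.34, DESeq2 adjusted p 0.0209) and by limma without EPN Sox9-GOF 3. The remaining Cfap genes ranged from 0 to 83.5 rescaled counts.

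Among the other ependymal genes, Ak7, an adenylate kinase linked to ciliary beating, had 73.5, 48.8 and 87.4 in EPN Sox9-GOF tumours and 42.2, 59.7 and 52.9 in EPN controls. Ak7 had 20.1, 27.1 and 36.8 in HGG Sox9-GOF tumours, 35.1, 38.6 and 76.8 under the Sox9-LOF label and 22.2, 6.15 and 19.9 in HGG controls. It was higher in EPN Sox9-GOF than in HGG Sox9-GOF tumours by 1.29 (SE 0.39, limma adjusted p 0.033), a call lost without HGG Sox9-GOF 1 or 2 or EPN Sox9-GOF 1 or 3, at 1.08 to 1.29. It was higher in every EPN control than in every HGG control with a log2 fold change of 1.78 that limma did not call (adjusted p 0.0793). DESeq2 called it there (1.58, adjusted p 0.0193), as did limma with the spread of all 15 libraries (adjusted p 0.0145). Ccdc153, an ependymal marker, had 5.05, 6.98 and 0.96 in EPN Sox9-GOF tumours and 5.28, 7.89 and 6.22 in EPN controls. Ccdc153 had 5.02, 10.3 and 21.9 in HGG Sox9-GOF tumours, 19.9, 5.68 and 43.4 under the Sox9-LOF label and 0, 2.05 and 16.3 in HGG controls. The groups of Ccdc153 overlapped between the models. Tmem212, a further ependymal marker, had 7.21, 10.5 and 0 in EPN Sox9-GOF tumours and 19.01, 6.76 and 1.56 in EPN controls. Tmem212 had 3.59, 13.2 and 18.4 in HGG Sox9-GOF tumours, 21.04, 24.97 and 45.6 under the Sox9-LOF label and 0, 2.05 and 13.5 in HGG controls. HGG control 1 held no read of Ccdc153 or Tmem212. Pifo, which acts at the base of cilia, had 5.05, 5.23 and 0 in EPN Sox9-GOF tumours and 3.17, 0 and 0 in EPN controls. Pifo had 2.15, 8.81 and 14.03 in HGG Sox9-GOF tumours, 5.85, 10.2 and 23.4 under the Sox9-LOF label and 42.1, 0 and 2.84 in HGG controls, with its highest value in HGG control 1.

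Within each model, limma called 0 members and 0% of all genes in every comparison by Sox9. In HGG Sox9-GOF against HGG control, 44 members were tested, 27 with positive and 17 with negative log2 fold changes, and the median was 0.20 against 0.03 over all genes. At an unadjusted p under 0.05 there were 2 members higher and 2 lower, where 22.7% of all genes passed, and edgeR called 0 members and DESeq2 2, Rfx3 and Cfap97, where it called 15% of all genes. Groups did not overlap for 3 members that were higher, against 14.6% of all genes, and 5 that were lower, against 16.2%. Rfx3 had the smallest adjusted p, with a log2 fold change of 1.24 (SE 0.27, limma adjusted p 0.0752) and higher values in all 3 HGG Sox9-GOF libraries than in HGG controls. Dnah5 had a change of 2.12 (limma adjusted p 0.225), with 2.38 rescaled counts in HGG control 1, while the change of Tekt2 was -1.50 (limma adjusted p 0.170) and that of Zmynd10 -1.35 (limma adjusted p 0.192). Without HGG control 1 the change of Dnah5 was 1.13. The median over members was -0.25 without HGG control 2 and -0.07 without HGG Sox9-GOF 3, so its sign rests on single libraries. It was 0.46 without HGG control 1, 0.47 without HGG Sox9-GOF 1 and 0.07 without HGG Sox9-GOF 2.

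In the libraries labelled Sox9-LOF against HGG controls, 46 members were tested, 32 of them positive and 14 negative, with a median of 0.37 against 0.01 over all genes. At an unadjusted p under 0.05, 4 members were higher and 1 lower, where 17.3% of all genes passed, 9.12% higher and 8.14% lower. EdgeR called 0 members, and DESeq2 called 1, again Rfx3, where it called 9.01% of all genes. With the spread of all 15 libraries limma called Rfx3 and 7.46% of all genes. Groups did not overlap for 5 members that were higher, against 13% of all genes, and 3 that were lower, against 11.7%. Tmem212 had the largest log2 fold change at 3.01 (SE 1.05, limma adjusted p 0.231), followed by Ccdc153 at 2.23 (SE 1.25, limma adjusted p 0.408). Hydin had 1.55 (SE 0.60, limma adjusted p 0.261), on 58 reads under the Sox9-LOF label and 24 in HGG controls. The median over members was 0.00 without HGG control 2, 0.62 without HGG control 1, 0.57 without Sox9-LOF 2 and 0.22 without Sox9-LOF 3. Both comparisons use the same HGG controls. Markers of other cells also differed in level. All 8 neuron markers and all 8 astrocyte markers had positive values under the Sox9-LOF label (medians 0.90 and 1.29), and 7 of 8 and 8 of 8 with Sox9-GOF (1.02 and 1.12). All 7 lymphocyte markers had negative values in both comparisons (medians -2.77 and -1.19), and limma called no marker of these 3 lists. The summed level of the lymphocyte markers ran from 15.9 to 128 under the Sox9-LOF label, from 34.5 to 299.9 with Sox9-GOF and from 16.4 to 1533 rescaled counts in HGG controls. The part of these cells in the values of the members was not tested. Set directly against the libraries labelled Sox9-LOF, HGG Sox9-GOF tumours gave 8 positive and 37 negative values over 45 members, a median of -0.39 against -0.02 over all genes, and limma, edgeR and DESeq2 called 0 members. At an unadjusted p under 0.05 there were 0 members higher and 2 lower, where 7.41% of all genes passed. The median was -0.07 without HGG Sox9-GOF 1, -0.62 without HGG Sox9-GOF 3 and -0.17 without Sox9-LOF 3. The lowest values were -1.47 for Tmem212, -1.14 for Tekt4 and -1.11 for Tekt2, and the highest 1.39 for Dnah8 and 0.87 for Dnah7b.

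In EPN Sox9-GOF against EPN control tumours, 30 members were tested, 14 positive and 16 negative, with a median of -0.05 against 0.04 over all genes. No member was higher and 3 were lower at an unadjusted p under 0.05, where 15.1% of all genes passed, and limma, edgeR and DESeq2 called 0 members, where DESeq2 called 5.77% of all genes. With the spread of all 15 libraries limma called 0 members and 0.884% of all genes. Dnah9 had the lowest value at -1.97 (SE 0.73, limma adjusted p 0.269), then Dnah10 at -1.90 (SE 0.67, limma adjusted p 0.249). Dnah10, an inner arm motor, had 10.1, 25.3 and 3.84 rescaled counts in EPN Sox9-GOF tumours and 30.6, 63.1 and 38.9 in EPN controls, without overlap. Rfx3 had -0.86 (SE 0.28, limma adjusted p 0.211), again without overlap. Hydin had 0.25 (SE 0.24) and Tekt5 0.31 (SE 0.28), both with overlapping groups. Neuron and astrocyte markers differed in level between these groups: all 8 neuron markers had negative values, with a median of -2.20, and so did all 8 astrocyte markers, with a median of -1.75. Their part in the values of the members was not tested.

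The effect of Sox9-GOF was also compared between the models in a single fit. Of 40 members, 1 was called, against 6.1% of all genes. Rfx3 changed by -2.12 (SE 0.38, limma adjusted p 0.0198) as the EPN effect minus the HGG effect, with all 3 libraries lower than controls in EPN and all 3 higher in HGG. The call was lost without single libraries, and limma called 44 to 2135 of all genes when 1 library was left out. Without HGG Sox9-GOF 3, EPN control 2 or EPN control 3 the value was -2.01, -2.11 and -2.07, with limma adjusted p of 0.0564, 0.0575 and 0.0586. With a correction for GC content it was -0.95 (limma adjusted p 0.122).

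Choroid plexus markers set single libraries apart within the HGG groups. Ttr, the transthyretin of the choroid plexus, had 51.7, 35.2 and 9150.3 in HGG Sox9-GOF tumours, 360.1, 61.3 and 23243 under the Sox9-LOF label and 105039.9, 111 and 10.7 in HGG controls, so HGG control 1, the library labelled Sox9-LOF 3 and HGG Sox9-GOF 3 stood apart. In EPN libraries Ttr did not exceed 32.3. All 10 choroid plexus markers were measured, and their sum was 811 to 2817 rescaled counts in EPN Sox9-GOF tumours, 1699 to 2451 in EPN controls, 135 to 9983 in HGG Sox9-GOF tumours, 175 to 25010.1 under the Sox9-LOF label and 202 to 111136 in HGG controls. In EPN most of the sum was Cldn2, at 619, 2721 and 2199 in EPN Sox9-GOF tumours and 2066, 2378 and 1509 in EPN controls. The 3 HGG libraries were also the highest of their group for many members: HGG Sox9-GOF 3 for 31 of 43 members (72.1%, against 32.9% of all genes), Sox9-LOF 3 for 32 of 46 (69.6%, against 37.9%) and HGG control 1 for 27 of 43 (62.8%, against 35.3%). The lowest of their groups were most often HGG Sox9-GOF 1, for 34 of 43 members (79.1%, against 35.6% of all genes), Sox9-LOF 2 for 27 of 46 (58.7%, against 40.7%) and HGG control 2 for 25 of 43 (58.1%, against 30.6%). HGG control 1 held 419 rescaled counts of Dnah10 and 118 of Cfap126, against no more than 84.1 and 19.2 in the other HGG controls. With the most choroid-rich library of each group left out, the median of the members was 0.10 for HGG Sox9-GOF and 0.33 for the libraries labelled Sox9-LOF, each against HGG controls, and no member was called.

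**Figure D5:**
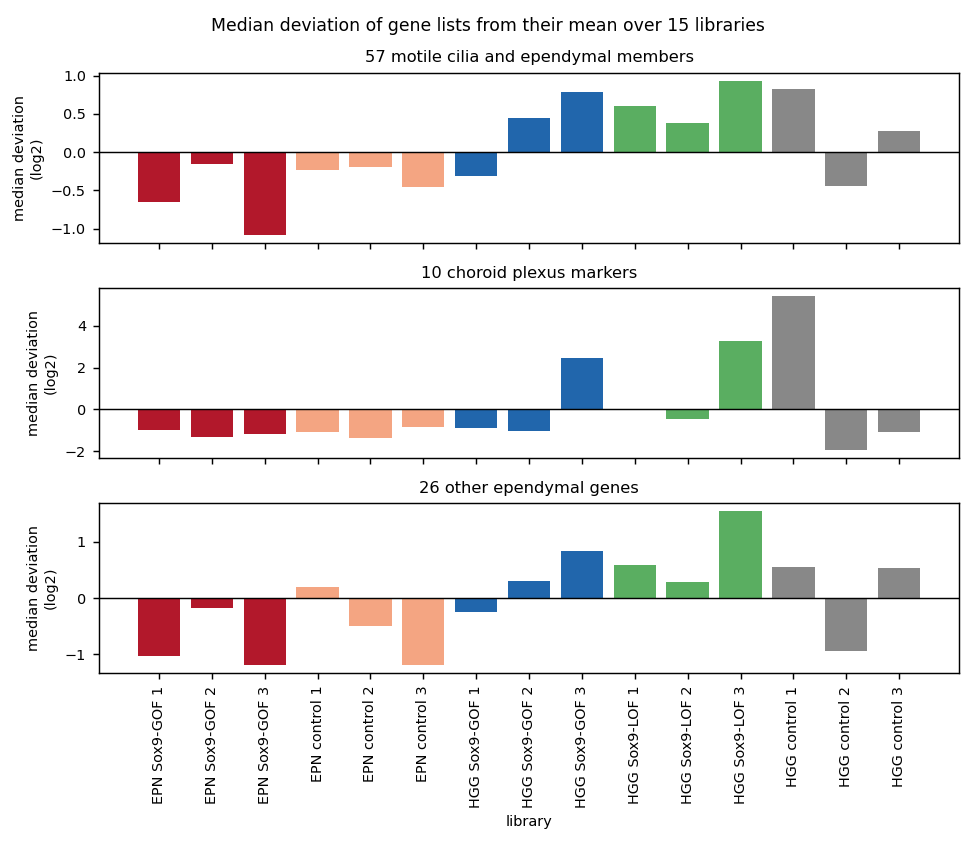
Bars give, for each library, the median over a gene list of the difference between log2(rescaled count + 1) and the mean of that gene over the 15 libraries, for the 57 members, 10 choroid plexus markers and 26 other ependymal genes. The members run from -1.08 in EPN Sox9-GOF 3 to 0.93 in the library labelled Sox9-LOF 3, and the choroid plexus markers reach 5.41 in HGG control 1.

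The EPN label was compared with ependymal markers that are not members. Mia, a secreted protein listed as an ependymal marker, had 2534, 4016 and 4979.7 in EPN Sox9-GOF tumours and 769, 2258 and 3449 in EPN controls. Mia had 21.5, 23.5 and 39.5 in HGG Sox9-GOF tumours, 23.4, 19.3 and 54.5 under the Sox9-LOF label and 39.7, 4.10 and 16.3 in HGG controls, and it was higher in EPN than in HGG controls by 6.89 (limma adjusted p 0.00684). Sntn, a protein at the ciliary tip, had 0, 2.62 and 0 in EPN Sox9-GOF tumours and 1.06, 1.13 and 0 in EPN controls. Sntn had 2.87, 2.94 and 5.26 in HGG Sox9-GOF tumours, 7.01, 3.40 and 10.02 under the Sox9-LOF label and 0, 0 and 1.42 in HGG controls. It was thus at or near 0 in EPN tumours and in HGG controls alike. Rarres2 and Capsl had log2 fold changes of -1.05 and -0.62 in EPN Sox9-GOF over HGG Sox9-GOF tumours (limma adjusted p 0.0969 and 0.499). Fam183b and Enkur did not exceed 20.9 in EPN libraries. Their log2 fold changes in EPN Sox9-GOF over HGG Sox9-GOF tumours were -2.74 and -0.76 (limma adjusted p 0.058 and 0.39). Of the 26 other ependymal genes, 16 were tested between controls and Mia alone was called, with a median of -0.44 against 0.00 over all genes. Further lists of axoneme parts, chosen like the members, are read against the 15.3% of all genes called between controls and the 40.7% called between the Sox9-GOF groups. Of 10 tested outer arm and docking genes none was called between controls, and between the Sox9-GOF groups 1 of 9 was higher (Dynlt1b) and 3 were lower (Dnal1, Ccdc151 and Dynll2). Of the nexin-dynein and ruler genes, 1 of 7 was lower between controls (Gas8), and 3 of 6 were lower between the Sox9-GOF groups (Ccdc65, Ccdc39 and Lrrc48), with medians of -1.27 and -2.10. Of the genes that assemble dynein arms, 0 of 10 were called between controls, and 2 of 11 were higher (Dnaaf3 and Dnaaf5) and 1 lower (Lrrc6) between the Sox9-GOF groups. Of 28 intraflagellar transport genes, which build primary cilia as well, 1 was lower between controls, and 4 were higher and 5 lower between the Sox9-GOF groups, with medians of -0.11 and -0.19. Of 31 primary cilium genes, 2 were lower between controls, and 4 were higher and 6 lower between the Sox9-GOF groups, with medians of -0.01 and -0.11. All 8 neuron markers were called lower in EPN Sox9-GOF than in HGG Sox9-GOF tumours (median -4.11), and 6 of 8 astrocyte markers, and their part in the low values of the members was not tested.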

How the data were processed

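Poly(A) RNA of 15 mouse brain tumour libraries was sequenced, 3 in each of 5 groups, and each library was placed in its group and given its replicate number by its title. Per the labels' protocols, RNA was taken from frozen tumour tissue and made into stranded libraries (TruSeq). The submitters' processing notes name mm10 and, without their roles, STAR 2.5.0a, DESeq2 1.30.1, MultiQC 1.11 and FastQC 0.11.7. Which tool counted the reads, with what strand setting and annotation, is not given in the sources used here. Counts of overlapping or near-identical genes are therefore uncertain.

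The authors deposited a signal per gene in 3 tables, namely normalized counts (reads over 1 size factor per library). The design had planned for such values: whole reads were recovered for 100% of values within 0.001 read, and HGG control reads were equal in both HGG tables for 24421 of 24421 genes. Date-like names replaced 27 gene names, which are not printed, and 0 sample columns were unused.

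Changes were tested with limma 3.58.1 (trended variance, R 4.3.3) on log2(count + 1) wherever the mean reached 10. Benjamini-Hochberg adjustment ran over all genes tested, with a threshold of 0.05. Comparisons with controls of the same model used the deposited values. Comparisons between models, of HGG Sox9-GOF with HGG Sox9-LOF, and of the Sox9-GOF effects used recovered reads of the 15 libraries, rescaled jointly (median of ratios). The fits were tested on simulated data. Fold changes on this scale understate the change of low genes, and floors cover counting error only. Alternatives were a pseudocount of 8, no filter, TMM scaling, edgeR 4.0.16, DESeq2 1.42.0, the spread of all 15 libraries, a replicate block, a GC correction, each library left out and, chosen after seeing the data, both libraries rich in choroid plexus markers left out.

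All comparisons were fitted without pairing, and the replicate block was an alternative only. Deviations of same-numbered HGG Sox9-GOF and HGG control libraries correlated at r of 0.173, 0.444 and 0.225 across genes. HGG Sox9-GOF 1 nevertheless matched HGG control 3 best. Members, lists and tests were chosen with earlier results of these data known. Named with all values are the 17 single genes, chosen family members and every member that limma called with all libraries in. Up to 4 members at each end of the fold changes were also picked in each comparison, and not all of their values are printed. Coordinates come from GENCODE M21 (GRCm38, the same build as mm10), and promoters from RefSeq (GRCm38.p6), where 52 of 57 members matched by symbol.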

Additional observations from a re-analysis of the deposited data

Results flagged for a closer look

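Rfx3, an RFX factor of ciliated cells, was singled out because its change with Sox9-GOF differed between the models in a test of the difference itself. The EPN effect minus the HGG effect was -2.12 on the log2 scale (SE 0.38, limma adjusted p 0.0198). The change was -0.86 in EPN tumours and 1.24 in HGG tumours, with 3 of 3 libraries beyond the controls in each, and limma called neither by itself. Rfx3 was also above every HGG control under the Sox9-LOF label, at 319, 249.7 and 287 rescaled counts against 151, 131 and 177. The higher level in HGG was thus not particular to Sox9-GOF. HGG Sox9-GOF over Sox9-LOF gave 0.18 to 0.55 when single libraries were left out, and limma called no member there. Over the alternatives the value lay between -2.35 and -0.95, and the call was kept in 16 of 21. Among RFX factors that are not members, Rfx1 was called the other way in the test of the difference, at 1.47 (limma adjusted p 0.0255). Rfx4 had -2.33 there and was not called (limma adjusted p 0.095). Neuron markers had a median of -3.13 and astrocyte markers of -2.89 in the same test, each negative for 8 of 8 genes, and their part in the Rfx3 value was not tested.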

How the results depend on the processing

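Over 69 named fold changes and their 1104 values under alternatives, 1102 kept their direction and 1016 their side of the threshold. Cfap126 in EPN Sox9-GOF against EPN control was 0.38, but -0.12 without EPN Sox9-GOF 2 and -0.28 without EPN control 3, within a range of -0.28 to 0.86 when single libraries were left out. In HGG Sox9-LOF against HGG control, 0 members were called, and 1 with DESeq2 and 1 with the spread of all 15 libraries. In HGG Sox9-GOF against HGG control the count was 0, and 2 with DESeq2 and 3 with that spread, which called 15% and 14.9% of all genes. In EPN control against HGG control it was 4, and 9 with DESeq2, 9 with that spread, 2 with the replicate block and 2 with the block and GC correction. For the difference between the Sox9-GOF effects it was 1, and 0 with the GC correction and 0 with the replicate block and GC correction. The causes were not tested. Leaving out 1 library gave 1 to 5 members in EPN control against HGG control (1 without EPN control 2 or 3), where 368 to 3633 of all genes were called. In EPN Sox9-GOF against HGG Sox9-GOF it gave 7 to 16 members (7 without HGG Sox9-GOF 2), where 4691 to 5644 of all genes were called. For the difference between effects it gave 0 to 1 members, where 44 to 2135 of all genes were called. In the other comparisons it gave 0 to 0 members.

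With the replicate block, 10 instead of 13 members were called in EPN Sox9-GOF against HGG Sox9-GOF, where same-numbered libraries correlated at r of 0.178, -0.22 and -0.041. HGG Sox9-GOF and Sox9-LOF libraries each correlated best with their own number (r of 0.076, 0.168 and 0.274), a hint from the data and not the design, and the block called 0 members. In HGG Sox9-GOF against HGG control the block called 0 members as well. Over all genes, DESeq2 called 1339, 2260, 842 and 139 where limma called 0, in HGG Sox9-LOF and HGG Sox9-GOF against HGG control, EPN Sox9-GOF against EPN control and HGG Sox9-GOF against HGG Sox9-LOF. It called 4396 against 2317 between the controls of the models and 2468 against 920 for the difference between effects. With edgeR the median over members of HGG Sox9-GOF against HGG control was -0.01, against 0.20 with limma. Depth is a further limit: 29 of 57 members averaged under 10 rescaled counts in EPN Sox9-GOF tumours, and 19 of 57 were too scarce to be tested between the Sox9-GOF groups.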
